A study of Rattus norvegicus with 16 samples.

Results

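The m6A-modified (IP) and unmodified (SUP) fractions of circular RNAs (circRNAs) were compared in the lumbar spinal cord of 4 rats that had received only saline, and the spread of the IP/SUP ratio across circRNAs was described. A circRNA was included when its spot was well above background in both IP and SUP on all 4 saline arrays, with spots marked as outliers counted as not detected. This held for 11732 of the 12893 circRNAs in the deposited values, and for 11732 of the 14145 circRNA probes on the array. The choice used detection and not the ratio itself, but for dim probes detection in both fractions leaves out uneven ratios.

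m6A is a methyl group on adenosine that is placed on RNA by "writers" such as the METTL3 and METTL14 complex, removed by the "erasers" FTO and ALKBH5, and bound by "readers" of the YTH family. circRNAs are made by back-splicing, which joins a downstream splice donor to an upstream acceptor and leaves a closed loop without free ends. RNase R digests linear RNA and spares such loops, and circRNAs are known to be plentiful in nervous tissue.

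All rats were adult male Sprague-Dawley (SD) rats. The normal saline (NS) group received 10 μl of saline intrathecally every morning and evening for 7 days, and the morphine tolerance (MT) group, also of 4 rats, received 10 μg of morphine hydrochloride in the same volume on the same schedule. The cord was taken in the morning of day 8, at 1 h after an injection of saline or morphine. Total RNA of each rat was divided with an anti-m6A antibody into the eluted RNA (IP) and the RNA left in the supernatant (SUP), both were treated with RNase R, and IP labeled with Cy5 and SUP labeled with Cy3 were hybridized to 1 array per rat. The dyes were not swapped, so a ratio common to all circRNAs cannot be told apart from a dye effect, nor can the lasting ratio of 1 circRNA from a dye effect of its probe, which would recur on all 8 arrays, MT arrays included. The ratio reflects recovery by the antibody and not a count of methylated molecules. The files used here carry no host genes for the probes, so the labeled tissue was not checked against marker genes, and a probe is named by its array identifier unless the study gave a host gene for it.

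All 8 arrays lay on 1 slide, with the NS arrays in one row and the MT arrays in the other, so that slide row and group cannot be told apart. The share of circRNA probes well above background on the NS arrays was 89.8% to 91.3% in IP and 90.3% to 94.9% in SUP, and 0 of the 11732 circRNAs were saturated. Precision is limited by the number of rats, and each circRNA had 1 spot per array.

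On the deposited scale, IP and SUP were near balance for the typical circRNA in saline cord, while the mean m6A level of single circRNAs ran from 0.928% to 93.0%. The median log2(IP/SUP) was −0.07 in NS replicate 1, 0.10 in replicate 2, −0.20 in replicate 3 and 0.11 in replicate 4, on the deposited scale. The medians lay on both sides of 0, with a mean of −0.01 ± 0.15 (SD, n = 4) and a two-sided exact sign-flip permutation p of 1, in a design of 4 rats that cannot pass 0.05. The m6A level is IP as a percentage of IP plus SUP, and the median circRNA was at 48.8%, 51.7%, 46.6% and 51.9% in replicates 1 to 4, or 49.8% ± 2.54 (SD, n = 4). The lower and upper quartiles of the level averaged 35.4% ± 2.68 and 60.1% ± 3.61 (SD, n = 4). The position of 0 rests on the normalization, since the median moved to −0.35 when the mean of the named spike-in probes was used and to 0.26 when the 75th percentiles of the channels were set equal. The deposited values start from a dye-normalized signal, with medians between 503 and 632 in IP and between 525 and 663 in SUP. Before dye normalization and without any scaling, the median log2(IP/SUP) was −0.18, 0.06, 0.68 and 0.63 in replicates 1 to 4. The near balance and the sign-flip p therefore describe processed values only.

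**Figure D1:**
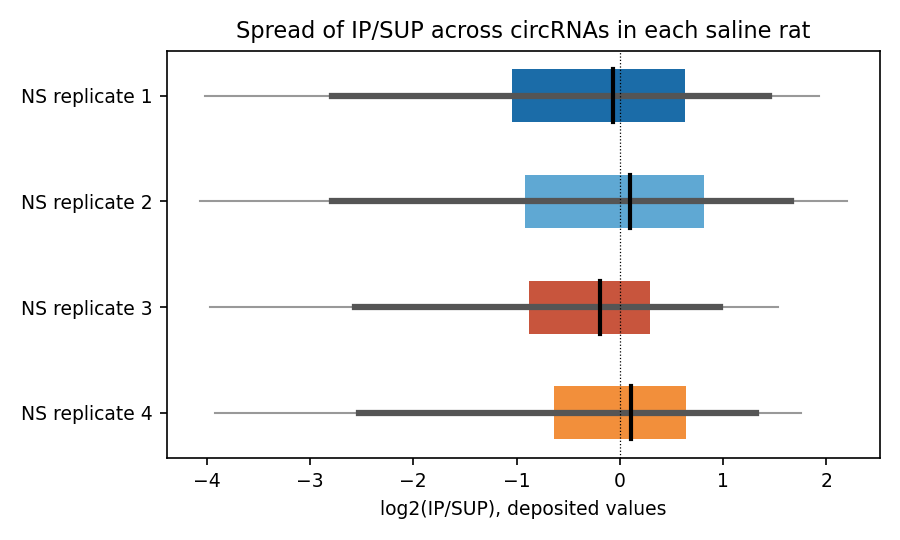
Log2(IP/SUP) of the 11732 circRNAs on the deposited scale in each of the 4 saline rats. Black marks are medians, boxes span the quartiles, thick lines the 5th to 95th percentiles and thin lines the 1st to 99th percentiles. The medians lie between −0.20 and 0.11, and in every rat the line reaches farther to the left of the median than to the right.

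The spread was lopsided, with a long tail of circRNAs that had a low IP/SUP ratio. Taken from the median, the 5th percentile lay 2.65 ± 0.21 log2 below and the 95th percentile 1.36 ± 0.20 log2 above (SD, n = 4). The lower arm was the longer one in each of the 4 rats, and the skewness was −0.79, −0.81, −1.10 and −1.20 in replicates 1 to 4. A level under 20% was found for 9.62% ± 1.59 of the circRNAs and a level over 80% for 0.889% ± 0.757 (SD, n = 4). By the mean of the 4 rats, SUP exceeded IP more than 4-fold for 1078 circRNAs, while IP exceeded SUP more than 4-fold for 38. More than 16-fold, the counts were 106 for SUP and 0 for IP.

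**Figure D2:**
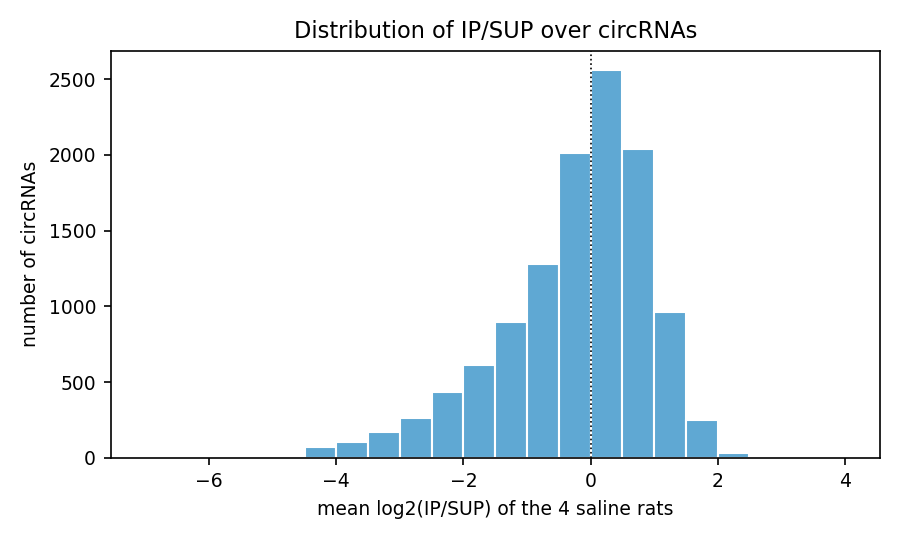
Number of circRNAs (vertical axis) by the mean log2(IP/SUP) of the 4 saline rats on the deposited scale (horizontal axis, bins of 0.5). The fullest bin, from 0 to 0.5, holds 2560 circRNAs, and the counts fall off more slowly to the left than to the right. Each bin below −4.5 or above 2.5 holds at most 15.

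The 106 circRNAs with SUP more than 16-fold over IP had a median m6A level of 4.98% in the NS rats. SUP was the higher fraction on all 4 NS arrays for each of them, which the choice on the mean of these arrays largely fixed. Their SD between rats had a median of 0.30 log2. Among the included circRNAs their median percentile was 43.0 in IP and 90.4 in SUP, so they were bright in SUP rather than dim in IP. Of these circRNAs, 17 were in the brightest decile by mean signal of IP and SUP. A dim circRNA with so uneven a ratio would fall below background in IP and so outside the filter, and 0 were in the dimmest decile. The 38 circRNAs with IP more than 4-fold over SUP had a median level of 81.3%, with 0 in the brightest decile and 5 in the dimmest. Their median percentile was 52.9 in IP and 7.35 in SUP, so SUP was dim for most of them. IP was the higher fraction on all 4 NS arrays for all 38, likewise largely fixed by the choice, with a median SD between rats of 0.45 log2. On the MT arrays, which had no part in choosing them, SUP was higher on all 4 for the same 106 circRNAs, with a median level of 3.94%. IP was higher on all 4 MT arrays for 31 of the 38, with a median level of 79.6%. For scale, relative to the array median 39.6% of all 11732 circRNAs were below and 38.8% above on all 4 MT arrays. At least 1 MT value was not well above background for 5 of the 106 and for 6 of the 38.

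The filter leaves out circRNAs for which one fraction was not well above background, so that the spread given here covers circRNAs measured in both. On the NS arrays, 175 probes were well above background in SUP on all 4 and in IP on none, and 62 were so in IP on all 4 and in SUP on none. A further 576 probes had SUP on all 4 and IP on 1 to 3, and 393 had IP on all 4 and SUP on 1 to 3. For these probes one fraction has only a bound on some arrays. Just outside the filter were 480 circRNAs of the deposited values that were well above background in 7 of their 8 NS values. The lowest of the 8 log2 values had a median of −8.04 for these, against −4.98 for the included circRNAs, the dimmest of which reached −8.19.

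Differences between circRNAs were larger than differences between rats. After the median of each array was subtracted, the mean of the 4 rats had an SD of 1.19 log2 and an interquartile range of 1.42 log2 across the 11732 circRNAs and ran from −6.75 to 3.80. The SD between the 4 rats had a median of 0.28 log2, with quartiles of 0.17 and 0.41, and reached 0.73 at its 95th percentile. The SD across circRNAs was 4.25 times the median SD between rats, and 90.3% of the variance lay between circRNAs. With normexp background correction both SDs were smaller, at 0.79 log2 across circRNAs and a median of 0.14 log2 between rats. For the named spike-in probes with 4 usable spots on an array, the SD of the log ratio between spots of 1 probe had a median between 0.05 and 0.07 log2 per NS array. Different spike-in probes also differed from each other in log2(IP/SUP), with quartiles of −0.02 and 1.13 in replicate 1, 0.18 and 1.27 in replicate 2, −0.30 and 0.40 in replicate 3, and −0.03 and 0.86 in replicate 4. Their part in the spread across circRNAs was not tested.

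The order of the circRNAs was compared between rats. In each rat, 2933 circRNAs were above the upper quartile of IP/SUP and as many below the lower quartile. Of these, 1728 were above the upper quartile in all 4 rats and 2114 were below the lower quartile in all 4. Over all circRNAs, 123 were above the upper quartile in one rat and below the lower quartile in another. Across the 11732 circRNAs, which are not independent and share each array's normalization, Pearson's r was 0.97 between replicates 1 and 2 and 0.93 between replicates 3 and 4. The other pairs of rats had r between 0.87 and 0.91.

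The width of the spread differed between the rats. The interquartile range was 1.68 log2 in replicate 1, 1.73 in replicate 2, 1.18 in replicate 3 and 1.28 in replicate 4, or 1.47 ± 0.28 (SD, n = 4). The share of circRNAs with a level over 80% followed the same split, with 0.852%, 1.97%, 0.324% and 0.409% in replicates 1 to 4. The brightness of SUP also moved with the width. Before dye normalization, the median signal in SUP was 94.9, 87.5, 54.8 and 60.9 intensity units in replicates 1 to 4, while IP was between 62.2 and 67.8. Before dye normalization the interquartile range was 1.36 in replicate 3 and 1.51 in replicate 4 and reached 2.10 in replicate 2, so the 2 narrow rats were narrow before and after. The part of brightness in the width was not tested.

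**Figure D3:**
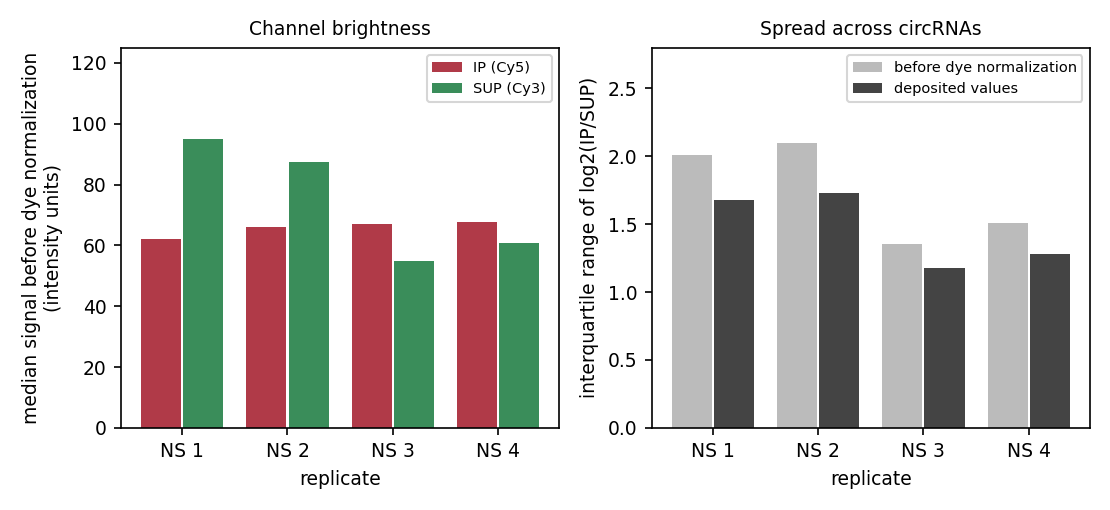
Left, median background-subtracted signal of the 11732 circRNAs in IP and SUP before dye normalization, in intensity units, for the 4 saline rats. Right, interquartile range of log2(IP/SUP) across these circRNAs before dye normalization and in the deposited values. SUP was dimmer and both ranges were narrower in replicates 3 and 4 than in replicates 1 and 2.

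The first question of the paired design is which circRNAs had more RNA in one fraction than in the other. On the deposited scale, IP was higher for 2893 circRNAs (24.7%) and SUP was higher for 3554 (30.3%), with a fold of at least 1.5 and an adjusted P under 0.05 in limma fitted to the whole deposited table. The background, which is the share of all 12893 circRNAs called, was 25.4% for IP and 30.5% for SUP, so the shares were close to those over all circRNAs. A further 5285 circRNAs passed in neither direction. IP was higher on all 4 NS arrays for 3866 circRNAs (background 32.9%) and SUP was for 4405 (background 37.0%). IP took 44.9% of the calls, and this share followed the scaling. It was 24.5% with the named spike-in probes, 59.6% with equal 75th percentiles, 51.6% after loess within each array, 15.7% with normexp background correction and 18.9% before dye normalization, the last pair also scaled with the named spike-in probes.

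Relative to the median of each array, a shift common to all circRNAs drops out. IP/SUP was above the median for 2935 circRNAs (25.02%) and below it for 3446 (29.4%) at the same fold and adjusted P, with backgrounds of 25.5% and 29.4%. The remaining 5351 passed in neither direction. The smallest adjusted P was 2.8e-05 by limma. With each NS replicate left out in turn, between 2633 and 3080 circRNAs were above and between 3206 and 3566 below. Without replicate 1, 87.7% of the circRNAs called above and 92.1% of those called below were shared with the fit of 4 rats.

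The same circRNAs were then looked up on the MT arrays, which were not used for the calls. Of the 2935 circRNAs above the median in saline cord, 2658 (90.6%) were above it on all 4 MT arrays. Of the 3446 below, 3358 (97.4%) were below it on all 4. Of those called, 129 above and 297 below had at least 1 MT value that was not well above background. Over all 11732 circRNAs, 38.8% were above and 39.6% below on all 4 MT arrays.

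On the deposited scale the typical ratio changed little with the brightness of the spot, while the spread was narrowest among the brightest. When the circRNAs were divided into deciles by mean log2 signal of IP and SUP, the median log2(IP/SUP) over the rats was between −0.17 in decile 10, the brightest, and 0.12 in decile 8. The interquartile range was 1.29 in the dimmest decile, 1.90 in decile 4 and 0.76 in the brightest (means of 4 rats). In the dimmest decile the filter on both fractions limits how far apart they can lie, so its range is not comparable with that of brighter deciles. The SD between rats had a median of 0.37 log2 in the dimmest decile and 0.10 in the brightest. At a fold of at least 1.5 and an adjusted P under 0.05 by limma, the brightest decile held 51 circRNAs (4.34%) called above the array median and 296 (25.2%) called below, against 25.5% and 29.4% over all circRNAs of the deposited values. The dimmest held 295 (25.1%) called above and 260 (22.1%) called below.

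**Figure D4:**
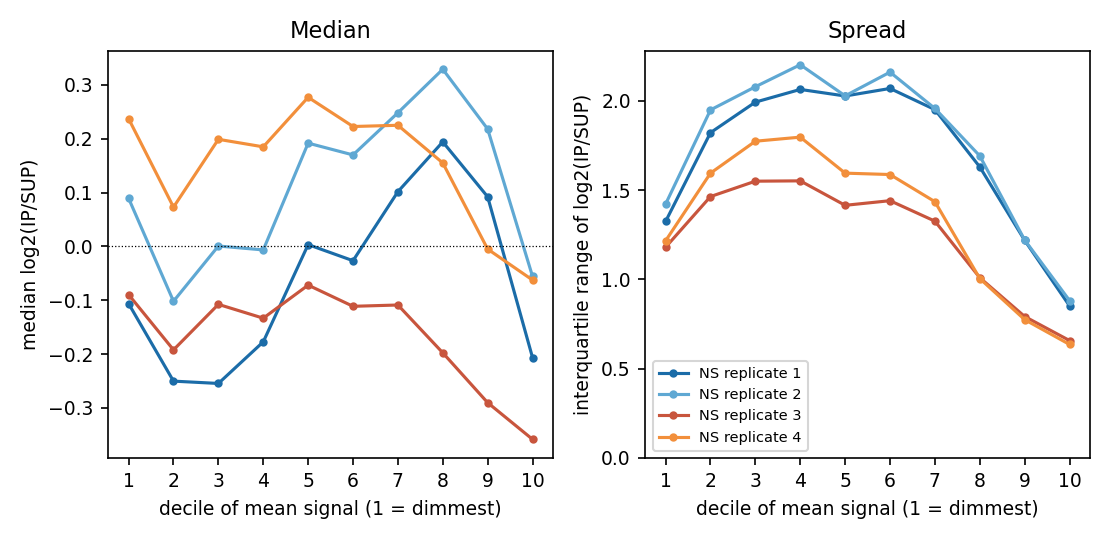
Median (left) and interquartile range (right) of log2(IP/SUP), on the deposited scale, within deciles of the 11732 circRNAs by mean log2 signal of IP and SUP, from the dimmest (1) to the brightest (10). Each line is 1 saline rat. The medians lie between −0.36 and 0.33, and the range is narrowest in the brightest decile, with a mean of 0.76.

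The direction of this relation depended on the background and dye steps. The Spearman correlation between log2(IP/SUP) and mean signal across circRNAs was between −0.10 and −0.07 in the 4 rats on the deposited scale, with a mean of −0.09. It was 0.42 with normexp background correction and 0.33 before dye normalization. In the brightest decile, 854 circRNAs were called above and 102 below the array median with normexp, and 769 were called above and 114 below before dye normalization. Over all 11732 circRNAs these settings called 2453 above and 2238 below, and 3343 above and 3953 below, respectively. Of the circRNAs called above and below the median on the deposited values, 1001 (34.1%) and 2219 (64.4%) were also called so with normexp, and 2009 (68.4%) and 3119 (90.5%) before dye normalization. After loess, 91.7% and 97.9% were. With normexp 7 were called in the opposite direction.

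The 10 highest IP/SUP ratios relative to the array median belonged to circRNAs with m6A levels between 83.9% and 93.0% in saline cord. Among the included circRNAs they ranged from the 0.068th to the 41.0th percentile of SUP and from the 35.7th to the 90.6th of IP. Their mean log2 SUP was between −7.58 and −4.55, where the dimmest included value was −8.19. For the dimmest of them, the level thus rests on a SUP near the detection limit. ASCRPR013249 had the highest ratio, with levels of 93.1%, 93.4%, 95.4% and 90.2% in replicates 1 to 4. Its log2 IP values were −0.28, −0.75, −1.11 and −0.90, and its log2 SUP values were −4.03, −4.58, −5.48 and −4.09, so IP was brighter in every rat with no overlap. IP exceeded SUP 13.8-fold, with a mean log2(IP/SUP) of 3.79 ± 0.48 (SD, n = 4). ASCRPR012492 followed at 90.9%, 92.5%, 93.7% and 93.0%, and varied less between rats, with a log2(IP/SUP) of 3.64 ± 0.24 (SD, n = 4). ASCRPR009329 was at 91.5%, 94.5%, 86.7% and 88.2%, with a log2(IP/SUP) of 3.28 ± 0.63 (SD, n = 4). Its SD was the widest of the 10 on the deposited scale, while relative to the array medians that of ASCRPR013249 was, at 0.61 against 0.56.

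The other 7 were ASCRPR003261, ASCRPR012415, ASCRPR004583, ASCRPR005231, ASCRPR013018, ASCRPR011854 and ASCRPR013479, with mean levels from 88.5% down to 83.9%. All 10 were taken from circRNAs called above the median with 1 sign on all 4 NS arrays. Their direction in every NS rat and their adjusted P, at most 0.00023 by limma, are therefore a description. On the MT arrays all 10 stayed above the array median, but MT replicate 4 gave the lowest level of the 4 MT rats for 9 of them and the exception was ASCRPR005231. SUP was not well above background for ASCRPR012415 in MT replicate 4 and for ASCRPR005231 in MT replicate 2, so those levels rest on a bound. For ASCRPR003261 the levels on the MT arrays were 80.6%, 81.9%, 83.7% and 48.2%. For ASCRPR012492 they were 88.7%, 89.9%, 90.8% and 57.5%. MT replicate 4 also had the lowest share of probes well above background in IP, at 83.6%, and its part in these values was not tested. With normexp background correction, ASCRPR013249 was at 3.07 log2 above the median, and ASCRPR012492, ASCRPR009329, ASCRPR003261, ASCRPR012415 and ASCRPR004583 dropped to 1.32, 1.41, 1.22, 0.86 and 0.94, respectively. ASCRPR005231, ASCRPR013018, ASCRPR011854 and ASCRPR013479 fell under a fold of 1.5 with normexp, at log2 values between 0.41 and 0.56 above the median.

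The 10 lowest ratios belonged to circRNAs of which IP held between 0.928% and 2.62% on average. ASCRPR006435 was the lowest, with m6A levels of 1.09%, 0.691%, 0.876% and 1.06% in replicates 1 to 4. Its log2 SUP values were 1.56, 1.49, 1.03 and 1.35 and its log2 IP values were −4.94, −5.67, −5.80 and −5.20, which places the fractions far apart in all 4 rats. SUP exceeded IP 108-fold, with a mean log2(IP/SUP) of −6.76 ± 0.31 (SD, n = 4). ASCRPR001879 was at 1.60%, 2.37%, 1.68% and 1.16%, with SUP 59.6-fold over IP.

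The low ratios differed in their spread between rats. ASCRPR010289 had levels of 2.05%, 1.99%, 2.18% and 2.15%, a log2(IP/SUP) of −5.55 ± 0.06 (SD, n = 4). ASCRPR011698 was at −5.46 ± 0.10 (SD, n = 4). Relative to the array medians the order turned, with an SD of 0.18 for ASCRPR010289 and 0.09 for ASCRPR011698. ASCRPR007961 varied the most of the 10, with a log2(IP/SUP) of −4.79, −4.96, −5.65 and −5.68, so replicates 1 and 2 lay above replicates 3 and 4. The other 5 were ASCRPR002436, ASCRPR010626, ASCRPR005322, ASCRPR010927 and ASCRPR005806, with mean levels between 2.20% and 2.58%. The call and its sign on the NS arrays were likewise fixed by the choice, and the adjusted P was at most 3.8e-05 by limma. All 10 lay below the array median on all 4 MT arrays, which the choice did not use. Under the other normalizations and background corrections they remained between −6.79 and −3.05 log2 relative to the median.

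**Figure D5:**
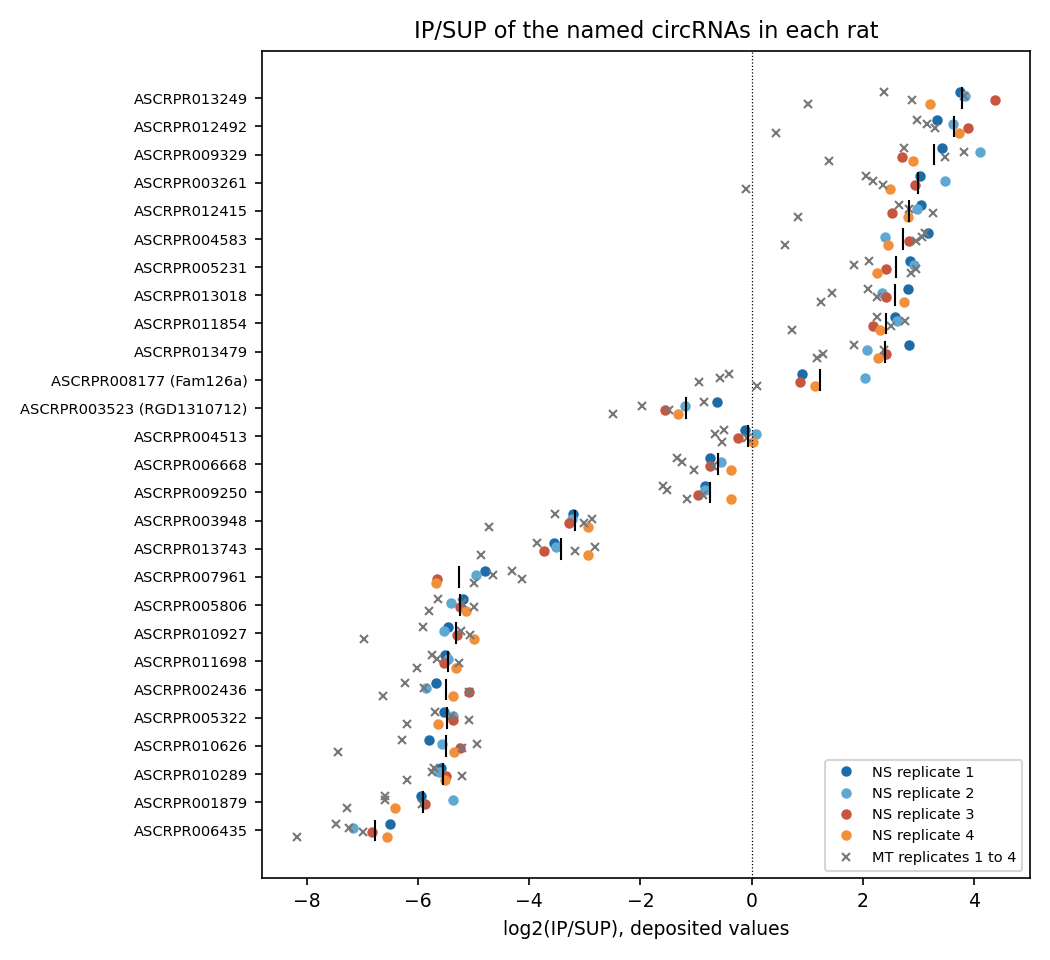
Log2(IP/SUP) on the deposited scale of the 27 named circRNAs. Filled points are the 4 saline rats, crosses the 4 morphine rats, and black bars the saline means, and the dotted line marks equal IP and SUP. From top to bottom are the 10 highest ratios, the 2 circRNAs with a host gene given by the study, the 5 with the brightest mean signal and the 10 lowest ratios, whose saline means lie between −6.76 and −5.24.

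The 5 circRNAs with the highest mean signal of IP and SUP differed in their ratios. Brightness also depends on the probe, so no order of abundance is read from it. ASCRPR003948 was at 9.70%, 9.62%, 9.36% and 11.5% and ASCRPR013743 at 7.88%, 8.05%, 7.00% and 11.6%, with replicate 4 the highest for both. SUP exceeded IP 8.98-fold and 10.8-fold, respectively. Relative to the median they were at −3.15 and −3.42 log2. These moved to −1.93 and −2.21 with normexp and to −2.10 and −2.37 before dye normalization. ASCRPR004513 was split almost evenly, at 47.9%, 51.2%, 45.8% and 50.5%, and did not pass the test, with an adjusted P of 0.62 by limma. ASCRPR006668 and ASCRPR009250 lay between these, at mean levels of 39.8% ± 3.07 and 37.2% ± 4.28 (SD, n = 4). Both passed the test below the median, but relative to the median they turned to 0.63 and 0.48 log2 above it with normexp and to 0.46 and 0.30 above it before dye normalization, and neither passed after loess. Without NS replicate 1 or 2, ASCRPR006668 no longer passed, at −0.56 and −0.57 log2 relative to the median. ASCRPR004513 turned as well, from −0.05 to 1.16 with normexp, 1.00 before dye normalization and 0.18 after loess.

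Host genes were known for 2 of the circRNAs, through the study's table of the 20 circRNAs with the largest m6A changes after morphine. All 20 were paired with a probe by their values and not by an array annotation. The study's fold change and P of each matched, to 5 decimals, those recomputed from the deposited IP values of 1 probe. The study chose these circRNAs on the same arrays, so their difference between MT and NS is not independent evidence. rno_circRNA_012261, measured by ASCRPR008177, comes from Fam126a (now Hycc1), which encodes hyccin, a protein tied to myelination. Its m6A level was 65.2%, 80.4%, 64.5% and 68.8% in NS replicates 1 to 4, which placed it at the 94.4th percentile of the ratio. The circRNA was dim in both fractions, in the dimmest decile by mean signal. It stood at the 13.8th percentile of IP and the 0.264th of SUP, so the level rests on values near the detection limit. The log2(IP/SUP) was 1.24 ± 0.55 (SD, n = 4), above the median with an adjusted P of 0.0027 by limma, and it moved to −0.02 relative to the median with normexp. On the MT arrays the levels were 43.0%, 40.2%, 34.0% and 51.6%, all below those of the NS rats, though IP was not well above background in MT replicate 4. The difference MT minus NS relative to the array medians was −1.45 ± 0.31 (SE), with an adjusted P of 0.41 by limma.

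rno_circRNA_000444, measured by ASCRPR003523, comes from RGD1310712 (now Emsy), which encodes a nuclear protein that binds BRCA2. Its level was 39.5%, 30.5%, 25.4% and 28.5% in NS replicates 1 to 4, with SUP brighter than IP in every rat. SUP exceeded IP 2.25-fold, with an adjusted P of 0.0026 relative to the median by limma. When IP and SUP were treated as unpaired groups, the adjusted P was 0.059. The MT levels of 35.5%, 20.4%, 26.3% and 15.1% overlapped the NS levels. Of the other 18 circRNAs in that table, 9 fell short of the filter in IP alone, 6 in SUP alone and 3 in both fractions.

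The spread in saline cord was set against that in the MT rats for the same 11732 circRNAs. The interquartile range was 1.84, 1.54, 1.69 and 2.05 log2 in MT replicates 1 to 4, or 1.78 ± 0.22 against 1.47 ± 0.28 in the NS group (SD, n = 4), and the ranges of the groups overlapped. The two-sided exact permutation p was 0.17, where 4 against 4 rats allow no p below 0.029. The median log2(IP/SUP) was −0.26 ± 0.23 in the MT group against −0.01 ± 0.15 in the NS group, with an exact permutation p of 0.14 (n = 4). The slope of log2(IP/SUP) on mean signal was −0.07 ± 0.03 against −0.05 ± 0.02, with an exact permutation p of 0.23 (n = 4). Adjusted over these 3 comparisons, each p was 0.23. The difference of the medians turned to 0.019 with equal 75th percentiles (exact permutation p = 0.34) and to 0.091 after loess (exact permutation p = 0.029), and the slope difference turned to 0.015 before dye normalization (exact permutation p = 0.80). With normexp the median difference was −0.060 (exact permutation p = 0.49) and that of the interquartile range 0.083 (exact permutation p = 0.46). The slope difference with normexp was −0.063 (exact permutation p = 0.086). The slope difference of −0.019 moved to −0.033 without MT replicate 4 (exact permutation p = 0.057) and to −0.012 without MT replicate 1 (exact permutation p = 0.46). The median difference of −0.25 moved to −0.16 without MT replicate 2 (exact permutation p = 0.26).

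For single circRNAs relative to the array medians, 0 of the 11732 differed between MT and NS at an adjusted P under 0.05 by limma (background 0%), with a smallest adjusted P of 0.41. At an unadjusted P under 0.05 there were 1323 (background 11.2%). On the deposited scale the smallest adjusted P was 0.21, and the share of all circRNAs at an unadjusted P under 0.05 was 14.6%.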

How the data were processed

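Values of the 4 NS rats (8 samples) were described, with the 4 MT rats beside them. The authors scanned the arrays and, per the labels, used Agilent Feature Extraction 11.0.1.1, whose deposited intensity per spot is background-subtracted and dye-normalized. The authors' deposited log2 values equal the log2 of that intensity less 1 constant per array and channel. The deposited scanner output also holds other marks for detection, outliers and saturation, which set the filter. With outlier marks ignored, 11767 circRNAs would be included. The files of the IP and SUP samples of a rat hold the same scan, and the Cy5 and Cy3 channel was used, respectively.

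Log2(IP/SUP) per array was tested with limma 3.58.1 in R 4.3.3 (lmFit and eBayes) over all 12893 circRNAs, against 0 or after subtraction of the array's median over the included circRNAs, with Benjamini-Hochberg adjustment. IP and SUP were paired because they come from 1 rat and 1 array. The correlations of their deviations were 0.52, 0.06, 0.17 and 0.37 for the same rat and up to 0.37 for different rats, so the pairing rests on the design and not on these values. The number of rats limits the precision. Python 3.11.15, numpy 2.4.6, pandas 2.3.3 and scipy 1.17.1 made the tables, and the fit was tested on simulated data. Named circRNAs are the 10 highest and 10 lowest mean ratios among those called relative to the median with 1 sign on all 4 NS arrays, the 5 brightest, and those of the study's table. The included circRNAs and all lists were chosen with earlier results of these data known. Gene symbols were updated through RefSeq names.

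Alternatives were other normalizations (named spike-in mean, 75th percentile, loess of span 0.3), normexp with an offset of 50 and the signal before dye normalization (both then scaled with the named spike-in mean), other filters, criteria and variance models, unpaired groups and leaving out each rat. Sequences and host genes of the remaining probes were not analysed here.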

Additional observations from a re-analysis of the deposited data

Results flagged for a closer look

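Each value reported in a group of 4 rats was examined for a sample far from the others, and 2 of 36 were picked out, where chance picks out about 1 in 20 groups. The log2(IP/SUP) of ASCRPR003948 was −3.22, −3.23, −3.28 and −2.94 in NS replicates 1 to 4, and the gap of replicate 4 to the nearest rat was 0.8291 of the range. The slope of log2(IP/SUP) on mean signal was −0.09, −0.08, −0.08 and −0.03 in MT replicates 1 to 4, with a gap of 0.8294 of the range for replicate 4.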

How the results depend on the processing

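The median log2(IP/SUP) was −0.35 (level 44.0%) with the named spike-in probes, 0.26 (54.5%) with equal 75th percentiles, −0.45 (42.3%) with normexp and −0.46 (42.1%) before dye normalization. The last pair was also scaled with the named spike-in probes. The parts of this scaling and of the background or dye step in their level cannot be told apart and were not tested. IP was higher for 1479 circRNAs with the spike-in probes, 896 with normexp, 1222 before dye normalization and 1250 at a fold of at least 2. Above the median were 1287 at a fold of at least 2, and below it 2238 with normexp. With normexp the interquartile range of the mean ratio was 0.89, the SD across circRNAs 0.79 and the SD between rats 0.14. Before dye normalization the interquartile range was 1.70 and the SD between rats 0.31, and without a filter that SD was 0.30. The Spearman correlation of the ratio with mean signal was −0.072 with loess, 0.42 with normexp, 0.33 before dye normalization, −0.11 for circRNAs detected on all 8 arrays and −0.072 for those detected on at least 2 NS arrays. MT minus NS turned to 0.019 with equal 75th percentiles and 0.091 with loess for the median, and to 0.015 before dye normalization for the slope. Relative to the median, ASCRPR004513 turned to 0.18 (loess), 1.16 (normexp) and 1.00 (before dye normalization), ASCRPR006668 to 0.63 and 0.46 and ASCRPR009250 to 0.48 and 0.30 (normexp and before dye normalization), and ASCRPR008177 to −0.025 (normexp). The causes were not tested.

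Treated as unpaired, without a replicate block, 2843 circRNAs were IP higher and 3438 SUP higher, and 2916 were above and 3374 below the median, and among the named circRNAs the pairing changed the call of ASCRPR003523 alone. With each NS rat left out, IP was higher for 2531 to 3279 circRNAs, SUP for 3418 to 3750, and the SD between rats was 0.25 to 0.27. ASCRPR006668 lost its call without NS replicate 1 or 2. Of the 209 summary values and the 294 values of named circRNAs recomputed, 277 of the latter kept their direction and side of the threshold, and 180 of the former moved by less than the limit for their kind (1 SD between rats, 1.5 times a count, or direction and side of the threshold for a test), which does not mean that they kept their size or, for a median near 0, their sign. With normexp, MT minus NS was −0.06 for the median, 0.08 for the interquartile range and −0.06 for the slope. The SD between rats was wider in the dimmest decile than in the brightest, and the cause was not tested.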

Other observations

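Across the array surface the ratio was nearly level. Over 8 blocks of 24 rows, the median log2(IP/SUP) relative to the array median, taken over the NS rats, was between −0.08 and 0.07. On the deposited scale the named spike-in probes had a median log2(IP/SUP) of 0.61, 0.76, 0.08 and 0.32 in NS replicates 1 to 4, so they stood above 0 on each NS array and by different amounts.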
